A study of Mus musculus with 4 samples.

Results

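The spots described here are the 485 spots of 2 ischemic mouse kidney sections with the highest share of Havcr1, the gene of kidney injury molecule 1. They were taken from the 4851 tissue spots of these sections that held at least 2000 unique molecular identifiers (UMIs, 1 per captured RNA molecule), among 10312 tissue spots over all 4 sections analysed. In each section, the Havcr1 counts and the total UMIs of every spot were pooled with those of its up to 6 neighbours on the array, and the 10% of spots with the highest pooled share were kept, 234 in ischemic section 1 and 251 in ischemic section 2. The 10% with the lowest share, 234 and 251 spots, served for comparison. The sections came from left kidneys of male wild-type C57BL/6J mice aged 7 to 8 weeks and were cut at 10 µm. Ischemic kidneys were taken 24 h after 30 min of bilateral ischemia, and the normal kidneys had no ischemia. Each group held 2 sections. The labels do not say which mouse a section is from, and the study's methods describe 2 technical replicates of each mouse. Against normal sections, p-values measure the spread between sections. Within ischemic sections they measure how far the 2 sections disagree on differences between sets of spots. Either spread may be technical.

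Havcr1 is silent in healthy tubules and is switched on in proximal tubule cells after ischemic or toxic injury, where the protein serves as a receptor for dying cells and is shed into urine. The last part of the proximal tubule, the S3 segment, runs through the outer stripe of the outer medulla, where oxygen supply is low, and it is the segment best known for damage after ischemia. On a Visium slide each barcoded spot takes up messenger RNA from the tissue above it, and a spot can hold several cells of different types, so that fewer cells of a type and less RNA per cell cannot be told apart in any value below.

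Levels are CPM, the counts of a gene in 1000000 UMIs summed over a set of spots, after scaling all sets together with trimmed mean of M-values (TMM) factors, given for section 1 and then section 2. In the normal sections, Havcr1 (ENSMUSG00000040405, chr11:46735080-46779578 in GRCm38) had 43 and 59 counts in all, at 0.967 and 2.15 unscaled CPM, which leave out the TMM factors. The chosen spots held 12593 and 11504 counts of it, at 2884 and 3158 unscaled CPM, and the lowest 10% held 122 and 112 counts, at 55.8 and 51.3. The spots were chosen by these values, which are a description with no test. The pooled share of the last spot inside the limit was 2479.27 CPM in section 1 and 2605.05 in section 2, against 2478.59 and 2604.43 for the first spot outside. For the lowest 10%, the corresponding shares were 86.52 inside and 86.60 outside in section 1, and 82.22 and 82.33 in section 2. The chosen spots held 28.8% and 31.5% of the Havcr1 counts of the spots kept in a section and 14.1% of their UMIs. Every chosen spot held Havcr1 counts of its own, with medians of 2878 and 3069 unscaled CPM and a range of 584 to 5578 in section 1 and 477 to 5993 in section 2.

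The chosen spots lay in patches rather than scattered. In section 1 they formed 27 patches of adjoining spots with 79 spots in the largest, and in section 2 they formed 23 patches with 63 spots in each of the 2 largest. Pooling over neighbours favours such patches. When spots were ranked by their neighbours alone, 87.2% and 87.3% of the chosen spots were chosen again, and the centre spots, whose own counts had not been read, held 2631 and 2899 unscaled CPM of Havcr1 in the highest 10% against 84.5 and 98.4 in the lowest.

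**Figure D1:**
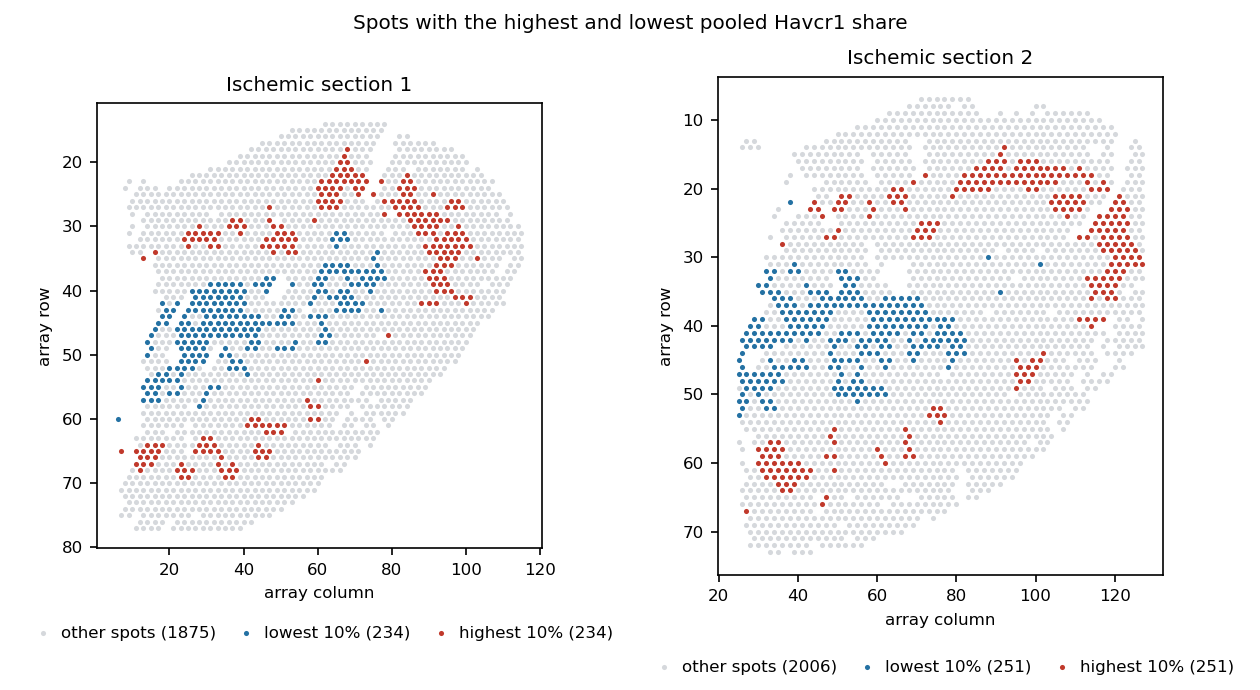
Positions of the tissue spots with at least 2000 UMIs on the array (column and row numbers, no unit) in the 2 ischemic sections, with the spots of highest (red) and lowest (blue) pooled Havcr1 share and all others in grey. The 234 and 251 red spots lie in patches along an arc around the blue spots.

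Zones were read from marker genes. These were Slc34a1, Slc5a2 and other cortical transporters for cortex, and Serpina1f, Slc7a13, Slc22a13, Cyp7b1 and Atp11a for the outer stripe. Umod and Slc12a1 were among those for the inner stripe, and Slc14a2 and Aqp2 among those for the inner medulla. Uroplakins, Krt5 and Psca served for the pelvis. By these markers, 89.3% and 91.6% of the chosen spots were outer stripe and 8.12% and 6.37% were cortex. They made up 33.3% of the 628 outer stripe spots of section 1 and 33.7% of the 682 of section 2. None of the spots with the lowest share lay in the outer stripe, and 57.3% and 43.8% of them were inner medulla, 32.1% and 45.0% inner stripe and 10.7% and 10.8% pelvis. Zone markers themselves differ between ischemic and normal kidneys, and the part of this in the zone calls was not tested. The chosen spots were also richer in RNA, with medians of 18368.5 and 14060 UMIs a spot against 8794.5 and 8247 in the lowest 10%, and mitochondrial genes took 3.04% and 3.95% of their UMIs against 2.67% and 3.18%.

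Between the chosen spots and those with the lowest share, 6722 of 12285 genes tested passed an adjusted p of 0.05 (54.7%, quasi-likelihood test of edgeR, p-values adjusted after Benjamini and Hochberg, section as a block), 3638 higher (29.6%) and 3084 lower (25.1%). Because the compared spots lie in different zones, the genes below are also followed through 3 further comparisons, which share the same chosen spots or sections and so are not independent of it. The first took the highest and lowest 10% within each zone, so that only 37.4% and 35.6% of its highest spots are chosen spots, and there 3513 of 11821 genes passed (29.7%), 1909 higher (16.1%) and 1604 lower (13.6%). The second, chosen after the zones of the spots were seen, set the chosen spots of the outer stripe against the other outer stripe spots of the same sections. There edgeR called 1814 of 11797 genes (15.4%; 8.25% higher and 7.13% lower), or 73 without a filter on low counts, and DESeq2 213 (1.81%), and a gene is called higher or lower within the outer stripe here only where it passed in both, as 132 genes did upward (1.12%) and 81 downward (0.687%). DESeq2 left 8691 of these genes without an adjusted p, and they count as not passed. The third set the chosen spots against the outer stripe of the normal sections, where 7789 of 12566 genes passed (62.0%), 3911 higher (31.1%) and 3878 lower (30.9%). Against all spots of the normal sections, 8032 of 14150 genes passed for the chosen spots (56.8%; 27.6% higher and 29.2% lower) and 7813 of 14358 for the spots of lowest share (54.4%; 25.1% higher and 29.3% lower).

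These differences are relative to the TMM factors, which set the typical gene near no change. With library sizes alone, an alternative added after the data were seen, the median gene moved by -0.42 on the log2 scale between the highest and lowest 10%, by -0.18 within zones, by -0.083 within the outer stripe, by 0.30 against the normal outer stripe and by 0.61 for the lowest 10% against normal sections. The split then became 1994 higher and 5777 lower between highest and lowest, 1062 and 2862 within zones, 463 and 1171 within the outer stripe with edgeR, 4980 and 2617 against the normal outer stripe and 6751 and 2382 for the lowest 10% against normal sections, Havcr1 left out. Between highest and lowest, small rises are therefore changes relative to the typical gene. Many of the genes and lists that turned or lost this call with library sizes alone are pointed out below.

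Slpi had the largest rise. Slpi, a secreted inhibitor of leukocyte proteases, stood at 354 and 289 CPM in the chosen spots and 4.63 and 0.362 in the lowest 10%, which rest on 13 and 1 counts. It rose by 7.01 on the log2 scale (SE 0.22, adjusted p = 3.08e-15), by 2.64 within zones and by 0.69 within the outer stripe (DESeq2 adjusted p = 0.0196), and the outer stripe of normal sections held 0.575 and 0.123 CPM. Krt20, a keratin of injured tubules and of urothelium (chr11:99428403-99438150), stood at 608 and 663 CPM against 15.7 and 13.0, and no count of it was found in the normal outer stripe. Its log2 difference was 5.48 (SE 0.10, adjusted p = 2.97e-18), 2.40 within zones and 0.48 within the outer stripe. For both genes the high-share sections lay far above the low-share ones, although Slpi, with so few counts in the low spots, gave 6.26 and 9.64 in the single sections.

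Among the other large rises, Nt5e, which makes adenosine from AMP outside the cell, was at 107 and 121 CPM against 1.42 and 1.09. The normal outer stripe held 119 and 103 CPM of Nt5e, and the difference from it did not pass (log2 0.10, adjusted p = 0.451). Kap, an androgen-regulated gene of the mouse proximal tubule, was at 43896 and 44625 CPM against 934 and 716 in the lowest spots and 263425 and 172603 in the normal outer stripe. Kap was thus higher than in the lowest spots by 5.77 on the log2 scale and lower than in the normal outer stripe by 2.22. Serpina1f, Serpina1a (alpha-1-antitrypsin) and Apob (apolipoprotein B) gave log2 differences of 5.78, 6.63 and 5.79 from the lowest spots and -2.001, -0.74 and -1.09 from the normal outer stripe. Counts of the Serpina1 genes are uncertain because near-identical copies can share reads.

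Mirt1, a long noncoding RNA, was at 50.01 and 46.5 CPM in the chosen spots, 0.356 and 1.09 in the lowest 10% and 4.89 and 2.34 in the normal outer stripe. Gm8126, Crct1 and 1700001F09Rik also belonged to the largest rises, with log2 differences of 6.01, 5.47 and 5.79, and Crct1 and 1700001F09Rik had no count in any normal spot. Crct1 stood at 115 and 104 CPM in the chosen outer stripe spots and 128 and 141 in the other outer stripe spots, so that it was lower by 0.30 on the log2 scale with edgeR, which did not pass with DESeq2 (adjusted p = 0.345). Gm27216, the remaining one of the 12 largest rises, stood at log2 5.74 from the lowest spots and -1.24 from the normal outer stripe.

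Among the largest falls, Slc14a2, the urea transporter of the inner medulla, stood at 21.8 and 31.1 CPM in the chosen spots and 699 and 543 in the lowest 10%, a log2 difference of -4.56 (SE 0.13, adjusted p = 8.79e-16). Aqp4, a basolateral water channel of the collecting duct, stood at 2.61 and 3.71 against 37.4 and 53.2 CPM, and Psca, a surface protein of urothelium, at 3.08 and 3.99 against 72.6 and 96.7. Spon1, Spink8, Npy, Muc20, Cck, Igfbp5, Ehf and Gm16136 fell by between 3.08 and 4.07 on the log2 scale. All of these genes also fell within zones, by between 1.61 and 2.89, though Slc14a2 and Psca also served to read the zones. None of them passed in both tools within the outer stripe, where a gene without a DESeq2 adjusted p counts as not passed. With edgeR and library sizes alone, Slc14a2, Ehf, Gm16136, Spink8, Npy and Igfbp5 were lower there, with log2 differences from -1.29 to -0.46. Spon1, Aqp4, Muc20, Cck and Psca did not pass there.

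Genes of tubular injury did not move together. Of 18 listed genes other than Havcr1, 10 were higher in the chosen spots than in those of lowest share, 4 were lower and 4 did not pass, with a median log2 difference of 0.59 against -0.0011 over all genes. With library sizes alone 9 were higher and 8 lower. The summed level of the list was lower in the chosen spots, 40056 and 34772 CPM, than in the lowest 10%, 71481 and 79239 CPM. Most of the sum in the lowest 10% was Spp1, which alone held 67275 of 91853 and 74000 of 100257 unscaled CPM there. In the chosen spots Spp1 held 20187 of 38708 and 15746 of 33452. In normal sections the list held 7363 and 7155 CPM in the inner medulla and 1763 and 1919 in the outer stripe. Gene by gene, the name of most injured spots holds for Havcr1 and the genes that moved with it, not for every injury gene. The spots are called high-Havcr1 spots from here on.

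Lcn2, the gene of neutrophil gelatinase-associated lipocalin (chr2:32384633-32388252) and a standard marker of injured distal tubules, stood at 1372 and 1004 CPM in the high-Havcr1 spots and at 8668 and 9914 CPM in the lowest 10%. The other outer stripe spots of the ischemic sections held 2251 and 2195 CPM and the normal outer stripe 2.78 and 5.91. The high-Havcr1 spots were thus the lowest of the 3 ischemic sets and still far above normal kidney, with no overlap between sections. Lcn2 fell by 2.95 on the log2 scale against the lowest 10% (SE 0.11, adjusted p = 4.00e-14), by 1.65 within zones (adjusted p = 3.67e-31) and by 0.88 within the outer stripe (DESeq2 adjusted p = 2.96e-04), where the single sections gave -0.69 and -1.08. Against the normal outer stripe it was higher by 8.21 on the same scale.

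Spp1, which encodes the secreted phosphoprotein osteopontin, and Clu, which encodes the extracellular chaperone clusterin, took the same course. Spp1 stood at 20890.4 and 16367 CPM against 52354 and 58487 in the lowest 10% and 29578 and 30769 in the other outer stripe spots. Clu stood at 2271 and 1668, 5465 and 6405 and 3394 and 3521 CPM in these sets. Both fell in each comparison within ischemic sections, Spp1 by 1.56, 0.83 and 0.71 and Clu by 1.58, 1.00 and 0.83 on the log2 scale. Krt19, a keratin of collecting duct and urothelium, was the fourth listed gene that fell against the lowest 10%, by 2.06. The metallothioneins Mt1 and Mt2, which bind zinc and copper, fell by 1.54 and 1.14 against the lowest 10% and by 0.56 and 0.48 within the outer stripe, and were above the normal outer stripe by 3.49 and 5.02.

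The injury genes that rose with Havcr1 were of other kinds. Cryab, a small heat shock protein, stood at 6117 and 5938 CPM against 701 and 587, and was higher by 3.24 on the log2 scale (SE 0.064, adjusted p = 4.73e-18). Krt8, a simple epithelial keratin, stood at 1218 and 1332 against 362 and 417 CPM and S100a6, a calcium-binding protein, at 5229 and 5333 against 2308 and 1842. Neither overlapped between sets. Sox9, a transcription factor of tubule repair, rose from 4.98 and 6.16 to 20.9 and 29.7 CPM, Plaur, the urokinase receptor, from 55.5 and 47.4 to 116 and 138, and Tnfrsf12a, the TWEAK receptor, from 238 and 202 to 545 and 502. Anxa2, Cd44, Krt18 and Krt20 were the other risers, of which Krt18 (0.30) turned to -0.12 with library sizes alone and did not pass. Within the outer stripe Krt20, Krt8, Anxa2 and Tnfrsf12a were higher and Lcn2, Spp1, Clu and Vim lower.

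Vim, an intermediate filament of mesenchymal and dedifferentiated cells, stood at 132 and 134 CPM in the high-Havcr1 spots, 156 and 137 in the lowest 10% and 207 and 219 in the other outer stripe spots. Its difference from the lowest 10% did not pass (log2 -0.12, adjusted p = 0.228). Timp1, Hbegf and Vcam1 did not pass either, at log2 0.17, -0.0067 and -0.14. With library sizes alone Vim, Timp1 (log2 -0.26), Hbegf and Vcam1 were all lower. Unscaled, Vim held 128 and 129 CPM in the high-Havcr1 spots against 201 and 173 in the lowest 10%. Against the normal outer stripe 17 of the 18 genes were higher. In the spots of lowest share 17 of 18 were higher than in whole normal sections, whose make-up of zones differs.

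**Figure D2:**
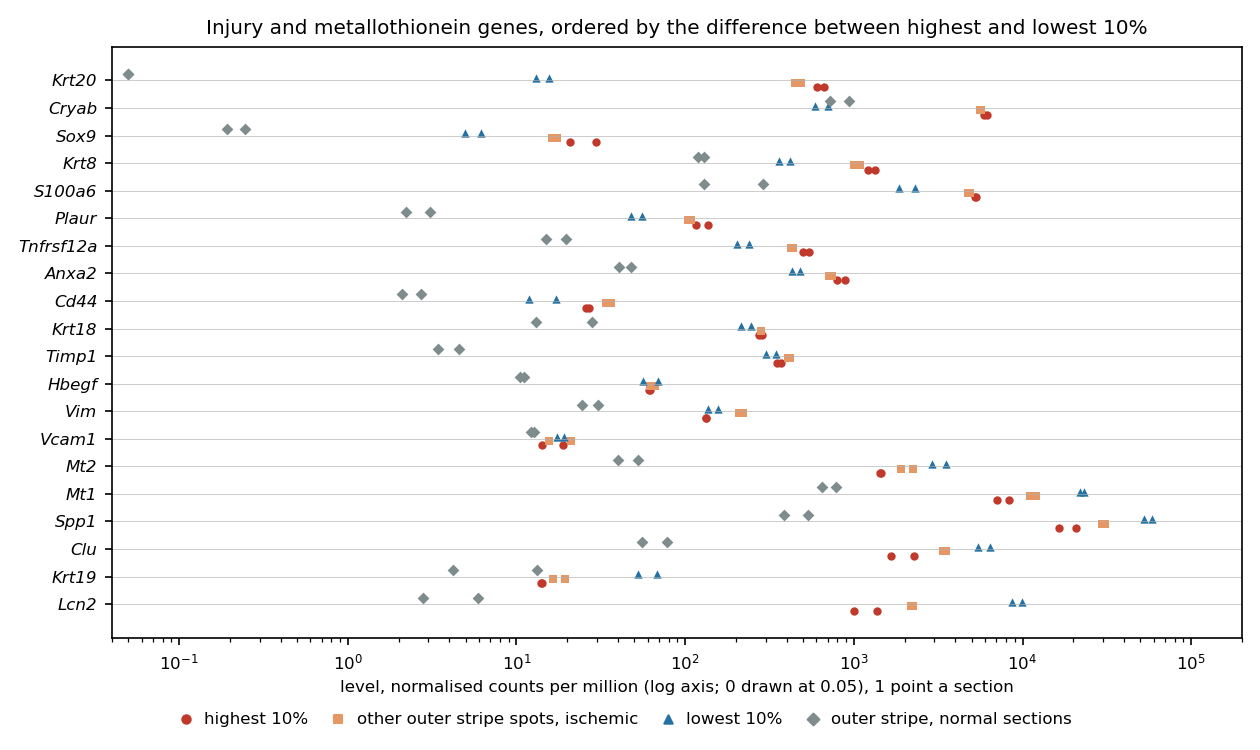
Levels of 18 injury genes and 2 metallothionein genes in normalised CPM on a log axis, with 1 point for each section in the spots of highest and lowest Havcr1 share, in the other outer stripe spots of the ischemic sections and in the outer stripe of the normal sections. Krt20 and Cryab lie highest in the high-Havcr1 spots, while Lcn2, Clu and Spp1 lie highest in the spots of lowest share.

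With the spots of each section sorted into 10 equal sets (deciles) by pooled Havcr1 share, Krt20 rose from 20.1 and 16.5 unscaled CPM in the first decile to 71.7 and 93.5 in the fifth and 587 and 637 in the last. Lcn2 ran the other way, from 11139 and 12544 in the first decile to 1615 and 2336 in the fourth and 1326 and 966 in the last, so that most of its decline lay between the first and the fourth decile. Spp1 went from 67275 and 74000.4 over 34508 and 38515 to 20187 and 15746 in the same deciles. No spot of the first 2 deciles lay in the outer stripe, the fourth decile was 82.1% and 58.6% cortex and the eighth 47.9% and 49.6% outer stripe.

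**Figure D3:**
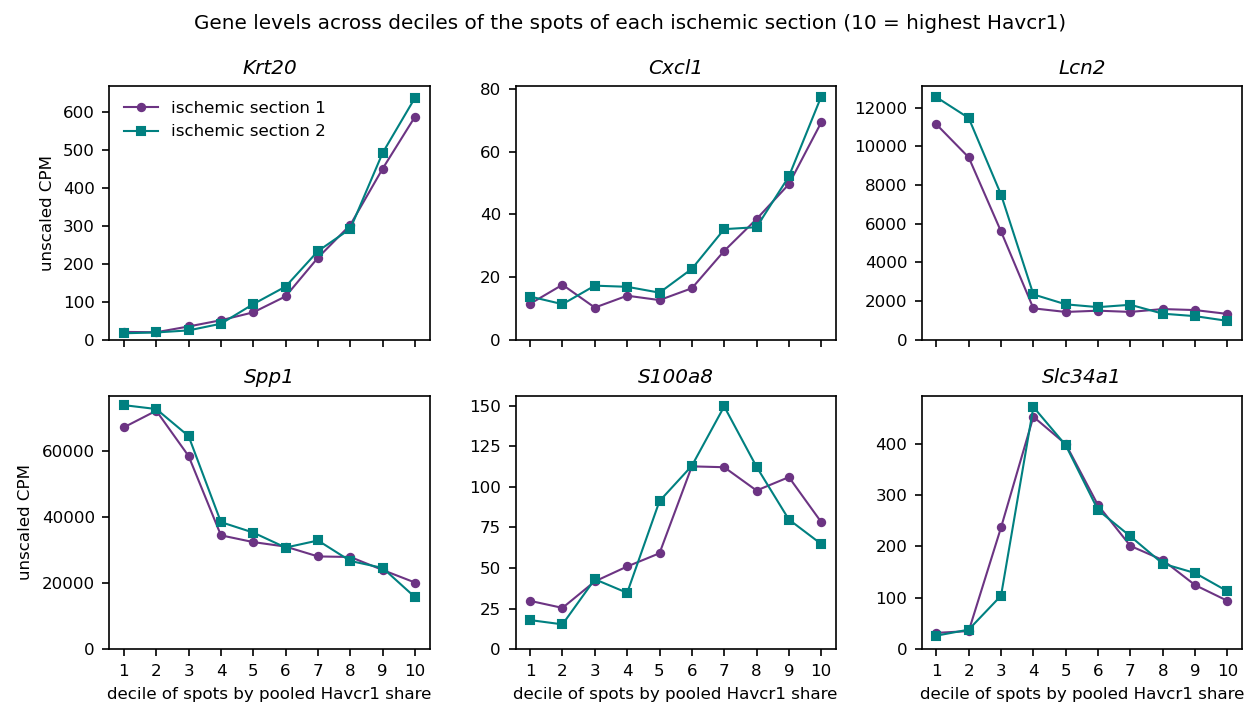
Unscaled CPM of 6 genes in deciles of the spots of each ischemic section, ordered from the lowest (1) to the highest (10) pooled Havcr1 share. Krt20 and Cxcl1 are highest in the last decile in both sections, Lcn2 and Spp1 are lowest there, and S100a8 and Slc34a1 are highest in deciles between.

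The high-Havcr1 spots carried the markers of the S3 segment. All 8 S3 genes were higher than in the spots of lowest share, with a median log2 difference of 4.06, although Atp11a (0.21) was lower with library sizes alone (-0.21), and 7 of 8 were higher within zones. Slc6a18, an amino acid transporter of the late proximal tubule that no zone list holds, stood at 910.3 and 975 CPM in the high-Havcr1 outer stripe spots and 605 and 599 in the other outer stripe spots. It was higher within the outer stripe by 0.64 on the log2 scale (0.59 and 0.70 in the single sections, DESeq2 adjusted p = 1.03e-10). Serpina1f was the other S3 gene higher there, by 0.86, but it helped to define the outer stripe zone, as did Atp11a, Slc7a13, Slc22a13 and Cyp7b1.

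Against the normal outer stripe the S3 genes split. Slc7a13, a cystine and aspartate transporter, stood at 29.2 and 38.2 CPM in the high-Havcr1 spots and 1188 and 1009 in the normal outer stripe, which is 31.2 times as high. Slc22a7, an organic anion transporter, stood at 19.2 and 24.8 against 1076 and 827 CPM and Atp11a, a phospholipid flippase, at 172 and 199 against 1072 and 926. Slc6a18 was the only one of the 8 that was higher than in the normal outer stripe, 899 and 965 against 682 and 589 CPM (log2 0.62, adjusted p = 4.94e-04), and the other 7 were lower. In the spots of lowest share all 8 were lower than in whole normal sections. Whole normal sections hold outer stripe and these spots do not, so zone and ischemia cannot be told apart in that comparison. Summed over the 8 genes, the spots of lowest share held 256 and 240 CPM. The normal inner stripe held 4292 and 1738 CPM and the normal inner medulla 1810 and 679, and these differences were not tested.

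Markers of the first proximal segments, S1 and S2, mostly turned around within zones. Of 11 genes, 9 were higher than in the lowest 10%, with Slc7a8 lower (log2 -0.85), but within zones 8 were lower and 2 higher. Slc34a1, the main phosphate transporter, stood at 97.2 and 117 CPM against 24.6 and 20.6 and turned from 2.25 to -0.93 on the log2 scale within zones (adjusted p = 2.51e-15). Slc22a6, an organic anion transporter, turned from 2.16 to -0.24, and Slc6a19 from 1.92 to -0.15, which did not pass. Of this list, Slc34a1, Slc22a6, Slc5a2, Slc5a12 and Slc22a8 are cortex zone markers. Lrp2, the endocytic receptor megalin, kept its sign: it stood at 128 and 161 CPM in the high-Havcr1 outer stripe spots and 99.1 and 96.2 in the others (log2 0.55, DESeq2 adjusted p = 0.0147), and at 737 and 666 in the normal outer stripe.

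Targets of NRF2, the transcription factor of the response to oxidants, were higher in the high-Havcr1 spots. Of 7 listed genes, 6 passed upward against the lowest 10%, 6 within zones and 4 within the outer stripe, with none downward under TMM scaling, and the median log2 differences were 2.12, 1.14 and 0.38. Hmox1, heme oxygenase 1, stood at 333 and 374 CPM against 21.0 and 21.0 in the lowest 10%, 261 and 279.7 in the other outer stripe spots and 19.7 and 13.7 in the normal outer stripe. Its sets did not overlap, and it was higher by 4.09 (SE 0.11, adjusted p = 2.99e-16), 1.72 and 0.38 on the log2 scale. Nqo1, a quinone reductase, stood at 219 and 244 against 18.5 and 26.1 CPM, Txnrd1, thioredoxin reductase, at 524 and 566 against 131 and 121, and Gclm, the modifier subunit of glutathione synthesis, at 556 and 664 against 127 and 162. Srxn1, sulfiredoxin, stood at 439 and 493 against 88.6 and 85.5 CPM.

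Gclc, the catalytic partner of Gclm, stood at 209.5 and 209.7 CPM against 238 and 233 and did not pass (log2 -0.15, adjusted p = 0.0767), while with library sizes alone it was lower (log2 -0.57, adjusted p = 9.16e-07). It was higher within zones (log2 0.20, adjusted p = 0.0182), which did not pass with library sizes alone, and lower than in the normal outer stripe, which held 424 and 370.3 CPM (log2 -0.85). Gclm was above the normal outer stripe, with 489 and 471 CPM there, by 0.41 on the log2 scale. Against all spots of the normal sections Gclc did not pass (log2 0.081, adjusted p = 0.673) and Gclm was higher by 1.13, so the sign for Gclc depended on the normal spots chosen.

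For these genes the bases before the start of transcription were searched for TGACNNNGC, the core letters of the antioxidant response element to which NRF2 binds, and for TGANTCA, the letters of an AP-1 site, on both strands. RefSeq promoters (GRCm38.p6) were at hand for 5 of the 7 genes, and 3 held a match in the 250 bases before a start. Over all 32851 promoters of this length, 10.2% held TGACNNNGC and 6.75% held TGANTCA. The sequences of these 3 genes are printed 5′ to 3′ on the strand of the gene because their transcripts rose together, and capitals mark the matches.
Srxn1 (chr2:152105274-152105523, + strand): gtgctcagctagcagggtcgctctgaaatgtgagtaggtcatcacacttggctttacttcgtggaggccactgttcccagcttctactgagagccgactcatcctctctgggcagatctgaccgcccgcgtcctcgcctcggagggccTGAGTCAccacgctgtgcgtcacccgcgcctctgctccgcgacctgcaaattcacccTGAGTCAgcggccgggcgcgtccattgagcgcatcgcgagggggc
Gclm (chr3:122245307-122245556, + strand): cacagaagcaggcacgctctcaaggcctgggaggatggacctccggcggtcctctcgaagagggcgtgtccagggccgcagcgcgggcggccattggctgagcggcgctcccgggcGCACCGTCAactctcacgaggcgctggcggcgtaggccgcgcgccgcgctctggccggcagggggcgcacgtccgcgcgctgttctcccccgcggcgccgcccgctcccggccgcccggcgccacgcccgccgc
Txnrd1 (chr10:82858956-82859205, + strand): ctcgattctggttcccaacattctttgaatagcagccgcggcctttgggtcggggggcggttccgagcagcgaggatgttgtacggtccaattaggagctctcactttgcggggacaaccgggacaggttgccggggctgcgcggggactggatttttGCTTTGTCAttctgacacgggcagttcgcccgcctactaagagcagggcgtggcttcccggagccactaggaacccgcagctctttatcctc
In Srxn1 the matches to TGANTCA begin 102 and 45 bases before the start. In Gclm the match to TGACNNNGC lies on the opposite strand and begins 134 bases before the start, and in Txnrd1 it begins 92 bases before one of its starts, also on the opposite strand. Among the 12 largest rises, 10 had a promoter in the table, of which 2 held TGACNNNGC (Krt20 and Mirt1) and 3 held TGANTCA (Gm8126, Mirt1 and Serpina1a). Of the largest falls named above, 4 had a promoter and none held either. These are matches of letters and not measurements of binding, and other forms of either site were not searched.

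Listed targets of p53 were also higher. All 7 tested genes rose against the lowest 10% (median log2 1.33), 6 of 7 within zones and none in both tools within the outer stripe. Gdf15, a stress hormone, stood at 328 and 356 CPM against 137 and 138, Ccng1, a cyclin, at 224 and 232 against 84.0 and 75.0, and Cdkn1a, the cell cycle inhibitor p21, at 89.6 and 89.6 against 34.2 and 34.0. In the normal outer stripe Cdkn1a stood at 6.81 and 4.92 CPM and Ccng1 at 239 and 202. Cdkn1a was thus higher than normal by 3.98 on the log2 scale, while Ccng1 did not pass (log2 0.12, adjusted p = 0.387). Of the cell cycle genes only Ccnd1, cyclin D1, rose (147 and 148 against 74.0 and 72.4 CPM), Mki67 fell from 4.98 and 1.09 to 0.237 and 0.856 CPM, and the other 6 tested, Pcna and Mcm2 among them, did not pass. Mki67 rested on 14 and 3 counts in the lowest spots and 1 and 3 in the highest, with log2 ratios of -4.39 and -0.34, so that section 1 alone carried the fall. Pcna was lower with library sizes alone (log2 -0.30).

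Of 8 heat shock genes 6 rose against the lowest 10% and 1 fell, or 4 and 2 with library sizes alone. Hspb1 stood at 1099.7 and 904 CPM against 375 and 396, Hspa8 at 2790.4 and 2627 against 1279.7 and 1203 and Hsp90aa1 at 752 and 731 against 222 and 265, each with both sections above. Hsp90aa1 was the only heat shock gene higher in both tools within the outer stripe, by 0.27 on the log2 scale. Hspb8, at 3.08 and 3.42 against 4.27 and 10.9 CPM, was the one that fell under TMM scaling. Genes of the unfolded protein and integrated stress response passed upward for 7 of 8, with a median of 0.44 under TMM scaling, but with library sizes alone 3 were higher and 3 lower, with a median of 0.019, so the direction of this list depended on the scaling. Chac1 was higher by 2.73, Asns by 1.87 and Trib3 by 1.63, which passed with either scaling. Hspa5, the chaperone BiP, stood at 0.21 and Atf4 at 0.21 under TMM scaling and at -0.21 and -0.22 with library sizes alone, each past the threshold, and Hspa5 held 341 and 409 unscaled CPM in the high-Havcr1 spots against 421 and 444. None of the 8 passed in both tools within the outer stripe. Ddit3 and Herpud1 were higher by 0.18 (not passed) and 0.21 against the lowest 10%, where Herpud1 was lower with library sizes alone (-0.21), and stood at -0.33 and -0.19 within zones.

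Fosl1, a subunit of the transcription factor AP-1, had the largest rise of its list, at 118 and 130.1 CPM against 21.7 and 17.7 and 0.0959 and 0.246 in the normal outer stripe. Its log2 difference was 2.67 against the lowest 10% (SE 0.13, adjusted p = 1.25e-12) and 1.28 within zones, and within the outer stripe it did not pass with DESeq2. Myc, Atf3 and Ier3 rose by 0.91, 0.57 and 0.44, whereas Junb and Egr1 fell by 0.51 and 0.66 and Fos, Jun and Klf6 did not pass. Atf3 and Ier3 did not pass with library sizes alone (log2 0.15 and 0.014), where Klf6 was lower (-0.24). The ferritin genes rose. Fth1 stood at 41791 and 41369.6 CPM against 19394 and 18609 and Ftl1 at 10099 and 9200.1 against 3695 and 3733, and Tfrc, the transferrin receptor, rose by 1.09 on the log2 scale. Fth1 was also higher within the outer stripe, by 0.23.

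Of the genes of gluconeogenesis, Pck1, Fbp1 and G6pc were higher than in the lowest 10% and lower within zones. Pck1, the carboxykinase of the pathway, stood at 137 and 148 CPM against 20.6 and 20.3 and turned from 2.82 to -1.297 on the log2 scale, Fbp1 from 2.59 to -1.08 and G6pc from 1.59 to -1.82. Within the outer stripe none of them passed, and Pck1 stood at 128 and 129 CPM in the high-Havcr1 spots and 148 and 142 in the others. Against the normal outer stripe, with 706 and 695 CPM of Pck1 and 787 and 734 of Fbp1, each of them was lower. Of the genes of fatty acid oxidation, 6 of 10 rose against the lowest 10% and 2 fell, the coactivator gene Ppargc1a and the thiolase gene Acaa2 (log2 -0.87 and -0.55), and 10 of 11 were lower than in the normal outer stripe, or 4 with library sizes alone. Ppargc1a gave log2 ratios of -1.62 and -0.15 in the single sections, so that section 1 carried its fall. G6pc did not pass against the lowest 10% with library sizes alone (log2 1.17).

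Acadm, a dehydrogenase of medium-chain fatty acids, stood at 184 and 218 CPM in the high-Havcr1 spots and 1589 and 1449.9 in the normal outer stripe, a fall of 2.85 on the log2 scale. The mitochondrially encoded genes were higher than in the lowest 10% for all 12 tested (median log2 0.65), of which 7 still passed with library sizes alone and none passed downward, and lower than in the normal outer stripe for 9 of 13. Among genes of glycolysis, Ldha, Pgk1 and Eno1 rose by 0.66, 0.71 and 0.67 and Pkm, Hk1 and Pfkp fell by 1.02, 1.86 and 1.12, while Aldoa, Hk2, Slc2a1, Vegfa and Bnip3 did not pass. Of the 11 genes 3 were higher and 7 lower with library sizes alone. None of the 11 passed in both tools within the outer stripe.

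The fibrinogen genes Fga, Fgb and Fgg, which liver makes for clotting and injured kidney also expresses, were listed with other acute phase genes. All 7 tested were higher than in the lowest 10% (median log2 2.93), 6 of them with library sizes alone too, but within zones none was higher and 2 were lower. Fgb stood at 43.6 and 53.4 CPM against 7.83 and 9.78 and 0.479 and 0.246 in the normal outer stripe. In deciles it was highest in the fourth decile of section 1 and the fifth of section 2, at 229 and 180 unscaled CPM, and the last decile held 18.4% and 28.5% of these levels. Fga stood at 137 and 206 CPM and Fgg at 102 and 139.8, and neither passed within zones. C3, complement component 3, stood at 53.1 and 60.7 CPM in the high-Havcr1 outer stripe spots and 34.6 and 38.1 in the others, which passed with edgeR and not with DESeq2 (adjusted p = 0.0704).

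Most markers of the thick ascending limb and the collecting duct were lower in the high-Havcr1 spots than in the lowest 10%, which lay mainly in the medulla. Of the thick ascending limb genes 6 of 7 were lower, of the principal cell genes 7 of 7, and of the intercalated cell genes 5 of 6. Umod, Slc12a1 and Aqp2 also served to read the zones. Umod, uromodulin of the thick ascending limb, stood at 2003 and 1531 CPM in the high-Havcr1 outer stripe spots, 2861 and 2909 in the other outer stripe spots and 5171 and 4899.8 in the normal outer stripe. Within the outer stripe Umod was lower by 0.72 on the log2 scale (-0.51 and -0.93 in the single sections, DESeq2 adjusted p = 0.00236). Aqp2, the vasopressin-regulated water channel, stood at 119 and 88.6 against 202 and 149 CPM there and Atp6v1g3, a proton pump subunit of intercalated cells, at 66.4 and 36.3 against 112 and 73.1, both lower in both tools.

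Cldn16, a claudin of the thick ascending limb, was the one gene of its list higher than in the lowest 10%, at 12.3 and 9.70 against 5.34 and 5.80 CPM, and it did not pass with library sizes alone (log2 0.58). Slc12a1, the target of loop diuretics, stood at 31.0 and 20.8 CPM against 123 and 97.8, with 555 and 603 in the normal outer stripe. Slc5a3, the inositol transporter of the medulla, stood at 75.6 and 65.6 against 319.9 and 307 CPM and fell within the outer stripe too, by 0.78. Markers of the distal convoluted tubule were sparse, with 22.0 and 21.4 CPM summed over 4 genes. Slc12a3, its cotransporter, rose from 7.83 and 12.0 to 15.6 and 17.1 CPM, which did not pass with library sizes alone (log2 0.31), and Calb1 and Trpm6 did not pass. All 5 tested urothelium genes were lower, as were all 4 of the inner medulla. The urothelium genes, and Slc14a2 and Akr1b3 of the inner medulla, also served to read the zones. Of the podocyte genes Nphs1 rose and Synpo and Wt1 fell, on 4 to 87 counts a section in the high-Havcr1 spots, and Nphs1 did not pass with library sizes alone (log2 1.12).

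**Figure D4:**
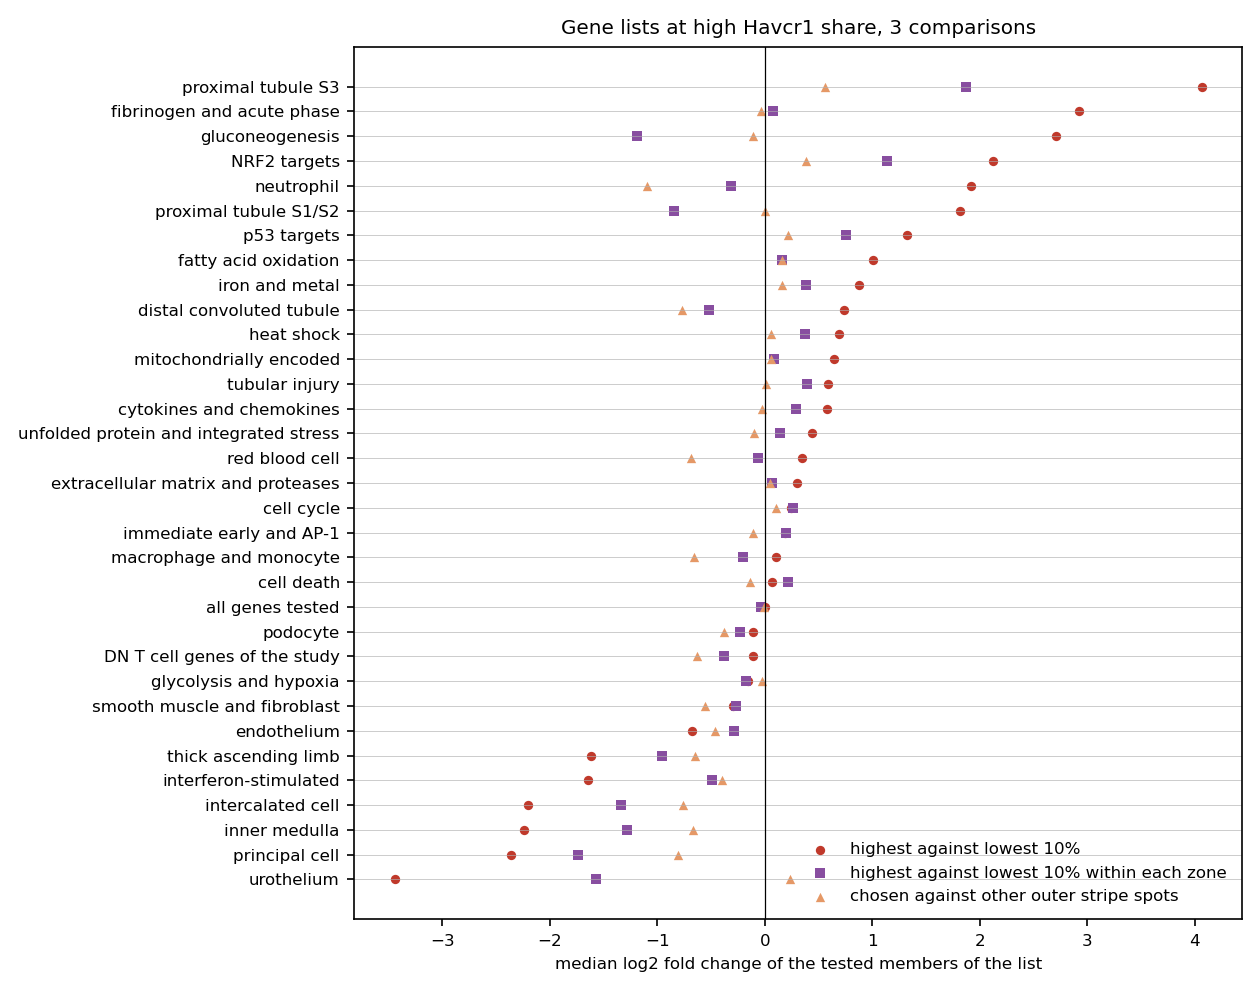
Median log2 fold change of each gene list with at least 3 tested genes, for the high-Havcr1 spots against those of lowest share (circles), for the highest against the lowest 10% within each zone, which are partly other spots (squares), and for the high-Havcr1 outer stripe spots against the other outer stripe spots (triangles), all under TMM scaling. The S3, NRF2 and p53 lists lie to the right of 0 in all 3 comparisons, while the neutrophil, gluconeogenesis and S1/S2 lists change side.

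Of the neutrophil genes 6 of 6 tested were above the normal outer stripe in the high-Havcr1 spots, and 2 of 7 were lower there than in the other outer stripe spots. S100a8, a calcium-binding protein of neutrophils (chr3:90668978-90670035), stood at 81.6 and 69.5 CPM in the high-Havcr1 outer stripe spots, 174 and 191 in the other outer stripe spots, 23.1 and 14.1 in the lowest 10% and 0.383 and 0.369 in the normal outer stripe. The other outer stripe spots were the highest of these sets in both sections. S100a8 fell within the outer stripe by 1.26 on the log2 scale (-1.09 and -1.46 in the single sections, DESeq2 adjusted p = 3.63e-12) and its partner S100a9 by 1.09 (DESeq2 adjusted p = 6.45e-11). All 7 tested neutrophil genes were lower there with edgeR, these 2 also with DESeq2. Against the lowest 10%, S100a8, S100a9, Retnlg and Il1b were higher, by 2.01, 2.04, 1.92 and 2.03, and within zones S100a8 was lower, by 0.36. Summed over 10 genes, the list held 204 and 183 CPM, and the defining marker Ly6g had 1 count in the high-Havcr1 spots.

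In deciles, S100a8 was highest in the sixth decile of section 1 and the seventh of section 2, at 113 and 150 unscaled CPM. Of the macrophage and monocyte genes, Lyz2, lysozyme, stood at 76.1 and 62.0 CPM within the high-Havcr1 outer stripe and 161 and 136 in the rest of it (log2 -1.11, DESeq2 adjusted p = 5.12e-09). The complement genes C1qa, C1qb and C1qc were lower than in the lowest 10% by 1.13, 1.09 and 1.14, and Cd68, Ccr2 and Chil3 were higher by 0.62, 1.59 and 1.55. With library sizes alone Cd68 and Ccr2 did not pass (log2 0.20 and 1.17) and Lyz2, at 0.11 against the lowest 10% and not passed under TMM scaling, was lower (-0.31). C1qb stood at 38.9 and 30.8 CPM, against 62.6 and 68.4 in the normal outer stripe. Tyrobp, the signalling adaptor of myeloid and natural killer cells, was lower within the outer stripe, at 64.6 and 53.9 against 117 and 122 CPM.

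T cell and natural killer cell genes were at the edge of detection in these spots. Summed over 10 T cell genes the high-Havcr1 spots held 2.13 and 3.99 CPM, the lowest 10% 8.18 and 7.97 and the normal outer stripe 24.8 and 29.0, and 225 of 234 and 240 of 251 spots held no count of any of them. Trac stood at 0.237 and 1.71 CPM against 4.63 and 3.98 in the lowest 10% and was lower, as was Lck, the only other T cell gene with enough counts for a test. Of the 5 natural killer cell genes, 3 had no count in the high-Havcr1 spots. Among the 10 genes that the study lists for double negative T cells, 4 were tested: Fcer1g, Dusp1, Fgl2 and Lyst. Fcer1g, the signalling chain of Fc receptors in myeloid cells and some lymphocytes, stood at 33.7 and 29.4 CPM against 48.0 and 32.6 in the lowest 10% (log2 -0.34, adjusted p = 0.0714) and 54.3 and 52.7 in the other outer stripe spots, where it passed with edgeR alone. With library sizes alone, edgeR called Fcer1g lower than in the lowest 10% (log2 -0.76, adjusted p = 3.91e-04). Lyst fell, from 7.12 and 11.6 to 2.37 and 2.57 CPM, and Dusp1 and Fgl2 did not pass. Kcnq5 and Klrb1c had 1 count each in the high-Havcr1 spots, and Klre1, Xcl1, Klrc1 and Trgv2 had none, which allows up to 0.687 and 0.823 unscaled CPM in the 2 sections (3 counts, counting error only).

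Of 12 cytokine and chemokine genes tested, 5 were higher than in the lowest 10% and 4 lower, against 29.6% and 25.1% of all genes. Cxcl1, a neutrophil attractant, stood at 71.8 and 80.7 CPM in the high-Havcr1 spots, 8.90 and 10.9 in the lowest 10% and 0.863 and 0.862 in the normal outer stripe, and rose by 2.96 on the log2 scale (SE 0.15, adjusted p = 4.90e-12), 2.54 within zones and 0.81 within the outer stripe (DESeq2 adjusted p = 0.00259). Cxcl1 was thus highest where Havcr1 was highest, while S100a8 and S100a9 were lower there than in the rest of the outer stripe. Cxcl2 rose from 3.20 and 6.88 to 17.1 and 27.7 CPM, Ccl2, a monocyte attractant, from 6.76 and 7.24 to 18.01 and 14.8, and Csf1 from 39.1 and 32.6 to 73.7 and 68.5. Il34 passed upward from 114 and 106 to 124 and 138 CPM (log2 0.26), but unscaled it held 119.8 and 133 CPM against 147 and 135, and with library sizes alone it turned to -0.16 and did not pass (adjusted p = 0.12). Cxcl10 fell from 55.5 and 75.7 to 13.3 and 11.4 CPM, Ccl5 from 32.4 and 29.0 to 3.55 and 3.71, and Cxcl16 and Lif fell by 0.42 and 0.77 on the log2 scale, Lif not within zones (log2 0.028).

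All 7 interferon-stimulated genes were lower than in the lowest 10%, with a median of -1.64, and 4 were lower within zones. Ifit3 stood at 9.95 and 9.70 CPM against 83.6 and 84.4, and the normal outer stripe held 9.20 and 13.2. Ifi27 stood at 57.6 and 56.8 against 178 and 189 CPM and was lower within the outer stripe in both tools, by 0.66. Bst2 and Isg15 fell by 0.71 and 1.38. Against the normal outer stripe 3 of the 7 were lower and none was higher, where 30.9% of all genes were lower and 31.1% higher. With library sizes alone 2 of the 7 were lower there, and the median of the list was -0.0052.

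Of the smooth muscle and fibroblast genes 3 of 8 were lower in the high-Havcr1 spots than in the other outer stripe, as were 2 of 8 endothelial genes, with none higher. Acta2, smooth muscle actin, stood at 134 and 135 CPM against 297 and 341 there and fell by 1.24 on the log2 scale (-1.14 and -1.33 in the single sections, DESeq2 adjusted p = 1.32e-18). Tagln stood at 113 and 121 against 199.8 and 223 CPM and Col1a2, a collagen chain, at 97.3 and 88.9 against 155 and 146, both lower in both tools. Against the lowest 10%, Acta2 did not pass (log2 0.067) but was lower with library sizes alone (-0.35), Tagln was higher by 0.70 and Col3a1 and Col1a2 were lower by 0.22 and 0.91. Within zones Tagln was lower, by 0.24, and Col3a1 did not pass. Plvap, a protein of fenestrated capillaries, stood at 111 and 128 against 179 and 189 CPM within the outer stripe and Emcn, endomucin, at 93.6 and 102 against 136 and 143, both lower, and 6 of 8 endothelial genes were lower than in the lowest 10% with none higher.

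Hemoglobin differed between the sections. Hbb-bs stood at 186 and 421 CPM in the high-Havcr1 outer stripe spots, 378 and 587 in the other outer stripe spots and 7601 and 4107 in the normal outer stripe. In each section the high-Havcr1 spots were below the others, and Hbb-bs, Hba-a1 and Hba-a2 were lower in both tools, though near-identical copies of these genes can share reads. Against the lowest 10%, Hbb-bs passed upward (log2 0.46, adjusted p = 0.00638), from 179 and 410.0 CPM in the high-Havcr1 spots and 184 and 225 in the lowest. The log2 ratio was -0.041 in section 1 and 0.87 in section 2, so that section 2 alone carried the rise, and with the top and bottom 5% of spots it did not pass (log2 -0.047), nor with library sizes alone (log2 0.038), where Hba-a1 was lower (-0.32).

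Genes of matrix and proteases were mixed, with 4 of 8 higher than in the lowest 10% and 3 lower. Over all genes tested, 29.6% were higher and 25.1% lower in this comparison. With library sizes alone 3 of the 8 were higher and 3 lower, and the median of the list turned from 0.30 to -0.12. Plau, urokinase, stood at 71.3 and 73.3 CPM against 27.4 and 28.6 and Itgb6, a beta chain of an integrin that activates TGF-beta, at 163 and 163 against 75.4 and 75.3, and both were higher within zones. Col18a1 and Mmp7 were among those that fell, by 0.30 and 1.65. Of the genes of cell death 4 rose and 4 fell. Gpx4, which guards against ferroptosis, stood at 1549.7 and 1566 CPM against 778 and 789, Gsdme, a gasdermin, at 9.01 and 6.28 against 1.42 and 2.54, Mlkl, the executor of necroptosis, at 17.8 and 18.8 against 8.54 and 10.1 and Casp8 at 33.7 and 36.8 against 23.5 and 19.9, and Casp8 did not pass with library sizes alone (log2 0.29). Acsl4, Gsdmd, Casp4 and Ripk3 fell by 0.58, 1.35, 1.59 and 0.84. Gpx4 was nonetheless below the normal outer stripe, which held 5397 and 3847 CPM.

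Among the 12 genes with the largest rises within the outer stripe, a choice made after the values were seen, Gsta1, a glutathione transferase, stood at 594 and 476 CPM in the high-Havcr1 spots, 339.8 and 291 in the other outer stripe spots and 0.0959 and 0.123 in the normal outer stripe, and the related Gm3776, with which it can share reads, at 173 and 106, 91.2 and 68.6 and 0 and 0.123. Gsta1 was higher by 0.76 within the outer stripe (DESeq2 adjusted p = 3.52e-11) and by 4.36 against the lowest 10%. Selenbp1, a selenium-binding methanethiol oxidase, stood at 1203 and 1296 against 725 and 731 CPM and Arg2, the mitochondrial arginase, at 228 and 221 against 126 and 109. In both sections these genes were above the other outer stripe spots. Serpina1a led the list at log2 1.20 (1.16 and 1.24 in the single sections), and Gm8126, Serpina1f, Cxcl1, BC035947, Tmem252, Cubn and Guca2b followed between 0.75 and 0.91. Cubn encodes cubilin, the partner of megalin in protein uptake, and Guca2b encodes uroguanylin.

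The 12 largest falls within the outer stripe were S100a8, Acta2, Sprr2f, Lyz2, Rasd1, S100a9, Cxcl12, Tyrobp, Ctsc, Myl9, Lcn2 and Cd24a. Cxcl12, a chemokine of stromal cells, stood at 28.8 and 29.4 CPM in the high-Havcr1 spots, 55.8 and 64.8 in the other outer stripe spots and 201 and 206 in the normal outer stripe. Cd24a, a surface glycoprotein of distal and progenitor-like tubule cells, stood at 703 and 494 against 1072 and 1099 CPM and Myl9, a smooth muscle myosin chain, at 125 and 106 against 209 and 234. Sprr2f, a cornified envelope protein, stood at 48.9 and 28.2 against 117 and 50.9 CPM and had no count in the normal outer stripe. Each fell in both sections. Fitted over both, the falls ran from 0.87 (Cd24a) to 1.26 (S100a8) on the log2 scale, and single sections gave smaller and larger ones.

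**Figure D5:**
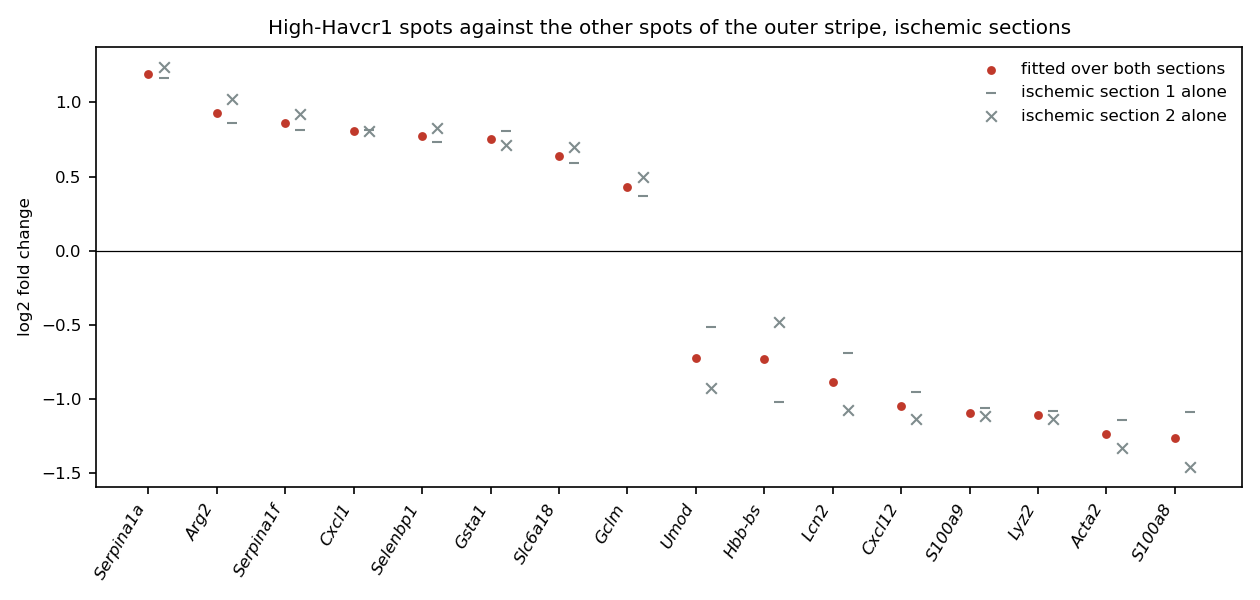
Log2 fold change of 16 genes between the high-Havcr1 spots and the other spots of the outer stripe, fitted over both ischemic sections (red points), with the ratio in each section alone (grey dash for section 1, grey cross for section 2). Every gene lies on the same side of 0 in both sections.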

How the data were processed

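Visium sections of 2 normal and 2 ischemic kidneys were analysed from the UMI counts per gene and spot that the authors deposited. These are whole-number counts without normalization, made with Space Ranger 1.3.0 per the file headers on mm10 per the labels, for 32285 genes. Only spots over tissue with at least 2000 UMIs were kept. Their counts were summed per section and set of spots, since spots are not replicates. The sums were fitted with edgeR 4.0.16 (R 4.3.3; TMM normalization, filterByExpr, quasi-likelihood test, p-values adjusted after Benjamini and Hochberg, threshold 0.05). Within ischemic sections the section was a block, because both sets came from the same tissue, and DESeq2 1.42.0 served as an alternative. Fold changes come from the fit of each comparison, and levels from 1 scaling over all sets, except where given as unscaled CPM. Where a symbol occurs more than once, the gene with more counts was used. The scripts were tested on simulated data.

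Named genes are the 12 largest rises and falls past the threshold with a mean of at least 20 CPM over the highest and lowest 10% and the same direction in both sections and, from each list, mainly its members of highest counts. Some genes that this rule names are not reported here. Other genes were named after their values were seen. The spots, the lists and the tests were chosen with earlier results of these data known. Total UMIs over tissue spots ran from 25957128 to 44528078 a section. The sections shared 1833 to 2137 spot barcodes pairwise, as the same array positions carry the same barcodes. No doublet caller was run, since a spot is not a cell. Gene positions are from GENCODE on GRCm38, matched by gene identifier. Reads shared by near-identical genes could not be assigned to 1 copy here.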

Additional observations from a re-analysis of the deposited data

Results flagged for a closer look

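Spots left out for holding fewer than 2000 UMIs belong to no comparison, yet those of the ischemic sections carried Havcr1. In ischemic section 1 the 58 such spots held 52 counts, at 945.971 unscaled CPM (counts in 1000000 UMIs), and in ischemic section 2 the 105 such spots held 123 counts, at 1238.31. The 48 and 150 such spots of the normal sections held none in 48090 and 161862 UMIs, which allows up to 62.4 and 18.5 unscaled CPM (counts in 1000000 UMIs) (3 counts, counting error only).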

How the results depend on the processing

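Between the highest and lowest 10%, the count of called genes ran from 4842 (DESeq2) to 7872 (20% of spots) around 6722, apart from 3513 when spots were taken within each zone. DESeq2 called 1811 genes within zones, of which 64.6% were higher against 54.3% with edgeR. Within the outer stripe, DESeq2 called 213 genes, edgeR without a filter 73 and edgeR without the block 982, against 1814, and the cause was not tested. RLE size factors moved the median of all genes by less than 0.1 in every comparison, whereas library sizes alone, an alternative added after the data were seen, moved it by -0.42 (highest against lowest), -0.18 (within zones) and 0.61 (lowest against normal). Without the replicate block of the same section, 6587 genes were called between highest and lowest and 2903 within zones. Normal and ischemic sections share only a number (correlation of their differences -0.06 for the highest and 0.02 for the lowest 10%), and with a replicate block 8166 and 7984 genes were called against normal for the highest and lowest 10%. Leaving out 1 section gave 6232 to 8020 genes for the highest 10% against normal and 6208 to 7555 for the lowest. Within ischemic sections it leaves 1 section, so only log2 differences and no count.

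Some named genes changed direction. Within each zone, log2 differences were Slc34a1 -0.93, Slc22a6 -0.24, Slc6a19 -0.15, Slc12a3 -0.12, Calb1 -1.54, Col3a1 0.049, Acta2 -0.60, Tagln -0.24, S100a9 -0.29, S100a8 -0.36, Retnlg -0.53, Lyz2 -0.40, Hbb-bs -0.21, Lif 0.028, Herpud1 -0.19, Ddit3 -0.33, Gclc 0.20, Gsdmd 0.14, Pck1 -1.297, Fbp1 -1.08, G6pc -1.82 and Fgb -0.35. With 5% of spots they were Hbb-bs -0.047, Hba-a1 -0.73 and Hba-a2 -0.56, and with 20% Podxl 0.26. Leaving out 1 section, Hbb-bs ran from -0.014 (without ischemic section 2) to 0.87 between highest and lowest. For lowest against normal, Spink8 ran from -0.20 (without ischemic section 2) to 1.27 and Slpi from -1.03 (without ischemic section 1) to 2.61. For highest against normal, Slc14a2 ran from -0.58 (without normal section 1) to 1.00. With the normal outer stripe in place of whole normal sections they were Serpina1a -0.74, Muc20 0.41, Ehf 0.22, Krt19 0.81, Slc6a19 0.26, Trpm6 1.89, Atp6v0d2 0.71, Slc4a9 0.10, Akr1b3 0.28, Wt1 0.0062, Gclc -0.85, Acadl -0.37 and BC035947 -0.44. With library sizes alone they were Atp11a -0.21, Acta2 -0.35, Lyz2 -0.31, Hba-a1 -0.32, Il34 -0.16, Klf6 -0.24, Hspa5 -0.21, Atf4 -0.22, Herpud1 -0.21 and Pcna -0.30 between highest and lowest, Hspa5 -0.14, mt-Co3 -0.085, mt-Co1 -0.12, mt-Atp6 -0.072 and mt-Cytb -0.034 within zones, and Atp6v1g3 0.55, Akr1b3 0.056, Acta2 0.57, Lyz2 0.46, C1qa 0.59, Hsp90aa1 0.22, Hsph1 0.15, Fth1 0.43, Plau 0.50 and Myl9 0.47 for lowest against normal. Krt18 and Timp1 also turned with library sizes alone between highest and lowest, as given above. Other changes of sign under the alternatives run were followed for the genes named by rule. They were of genes that did not pass the threshold in either fit or, with 1 section left, had no test.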

Other observations

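When spots were ranked by their own Havcr1 counts without neighbours, 53.4% and 58.6% of the chosen spots were chosen again, and leaving out the mitochondrial genes kept 97.9% and 97.6%. Of the chosen spots, 12 and 20 lay at the edge of the tissue. Each condition had 2 sections, so a gene with few counts, such as Slpi in the lowest spots, has an uncertain fold change. Between highest and lowest, log2 ratios of the single sections were -2.60 and -5.79 for Spink8, -2.15 and -3.47 for Aqp2, 3.43 and 6.10 for Slc22a7, 1.37 and 3.98 for Il1b, 2.71 and 1.28 for Retnlg, -4.29 and -1.22 for Trac, -1.03 and -2.93 for Casp4, 2.66 and 1.31 for Gsdme and -0.47 and -1.67 for Hspb8. The fit within the outer stripe compares 2 pairs of sums and leaves 1 residual degree of freedom, and its standard errors can be smaller than the gap between the sections.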
